A study of Homo sapiens with 36 samples.

Results

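WNT ligands, their receptors and their antagonists were described across 36 human lymphoma cell lines. The genes were all rows of the count table whose symbol begins WNT, FZD, SFRP, DKK or AXIN, together with LRP5, LRP6, LEF1, TCF7, TCF7L1, CTNNB1, APC and CXXC4, which gave 46 of the 2549 genes measured. By role they were 19 WNT ligands, 10 Frizzled receptors, 2 LRP co-receptors, 7 secreted antagonists (the SFRP and DKK proteins), 1 intracellular inhibitor (CXXC4), 4 genes of the destruction complex and β-catenin (APC, AXIN1, AXIN2 and CTNNB1) and 3 nuclear factors (LEF1, TCF7 and TCF7L1). Of the 46, 42 passed a filter on low values, which asked for 10 CPM or more in 4 lines or more. CPM is the count scaled to a fixed library total and by the TMM factor, a correction for library composition. DKK1, TCF7L1, WNT10B and WNT3A did not pass.

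WNT proteins are secreted lipid-modified ligands that bind a Frizzled receptor together with the co-receptor LRP5 or LRP6. In the absence of ligand, a complex built on AXIN and APC marks β-catenin, the product of CTNNB1, for degradation, and binding of a ligand stops this, so that β-catenin enters the nucleus and acts with the DNA-binding proteins LEF1 and TCF7. Other ligands, WNT5A the best known, act mainly through branches that do not need β-catenin, while SFRP proteins bind ligands outside the cell and most DKK proteins block the LRP co-receptors. In the blood system LEF1 and TCF7 are best known from T cell development, and LEF1 is also known from early B cells and from chronic lymphocytic leukaemia. Normal mature B cells have little of it.

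Each line was measured once, by targeted RNA-Seq of lysed cells, which counts a fixed panel of genes. The lines are established laboratory cultures, none of them is stated to have been treated, and each is 1 culture of a tumour from 1 donor. The labels give the name of each line and no lymphoma type, so the types used here are textbook knowledge of the named lines. They were germinal centre B-cell-like (GCB) diffuse large B-cell lymphoma in 14 lines (DB, DOHH2, KARPAS422, OCILY1, OCILY18, OCILY19, OCILY7, OCILY8, SUDHL10, SUDHL16, SUDHL4, SUDHL6, TOLEDO and WSU_DLCL2), activated B-cell-like (ABC) diffuse large B-cell lymphoma in 5 (HBL1, RIVA, SUDHL2, TMD8 and U2932), mantle cell lymphoma in 9 (GRANTA519, JEKO1, JVM2, MAVER1, MINO, REC1, SP49, SP53 and UPN1) and marginal zone lymphoma or hairy cell leukaemia in 5 (HAIR_M, HC_1, KARPAS1718, SSK41 and VL51), while FARAGE, MEC1 and RCK8 were placed in no type. A level has no replicate error, and p-values measure the spread between lines.

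Library totals ran from 6422917 to 13451527 counts, with a median of 10476681. Where no count was seen, levels of 0.474 CPM or less remain possible in OCILY8, the library with the highest such limit, for counting error only. In MEC1 the highest of 10 control targets, which name no gene, held 424 counts, against 64 in the next library and a median of 10, and MEC1 also had the highest level of 13 of the 46 WNT genes. The same count over all genes of the panel was not made. No gene in MEC1 held fewer than 174 counts, while the lowest gene held 10 in REC1, 4 in SUDHL6 and 0 in the other libraries. Low levels in MEC1 may thus be background. The slopes of the 46 genes on AXIN2 are given with and without MEC1. The B cell markers MS4A1, CD79A, PAX5, CD22 and CD74 lay above the highest control target in all 36 lines. Each gene was read at 1 target whose capture efficiency is unknown, so levels are compared between lines and not between genes.

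Most of the family lay above the control targets in most lines, and so did most of the panel. Of the 46 genes, 45 lay above the library's highest control target in at least 18 lines, and 29 did so in all 36. The exception was TCF7L1, a nuclear factor, which was above it in 12 lines and had a median of 0.65 CPM. Of all 2549 genes, 2318 (TOLEDO) to 2500 (DOHH2) passed this bar in a library, with 40 and 45 of the 46 in those libraries. The myeloid marker LYZ and the epithelial marker KRT19 passed it in all 36 lines, and the myeloid marker FCGR1A in 15. The bar alone therefore does not set the family apart from the panel. A median of at least 10 CPM over the lines was reached by 29 of the 46. The SD of log2 CPM across lines had a median of 1.43 over the 42 genes that passed the filter, beside 1.2 over all 2406 genes that did. The most variable were TCF7 (SD 2.54), WNT5B (2.53), CXXC4 (2.42), FZD8 (2.35), WNT9A (2.13), LEF1 (2.11), LRP5 (2.07), WNT3 (2.02), WNT5A (1.96), WNT8A (1.94), WNT16 (1.87) and WNT10A (1.82). The least variable were APC (0.46) and CTNNB1 (0.70).

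**Figure D1:**
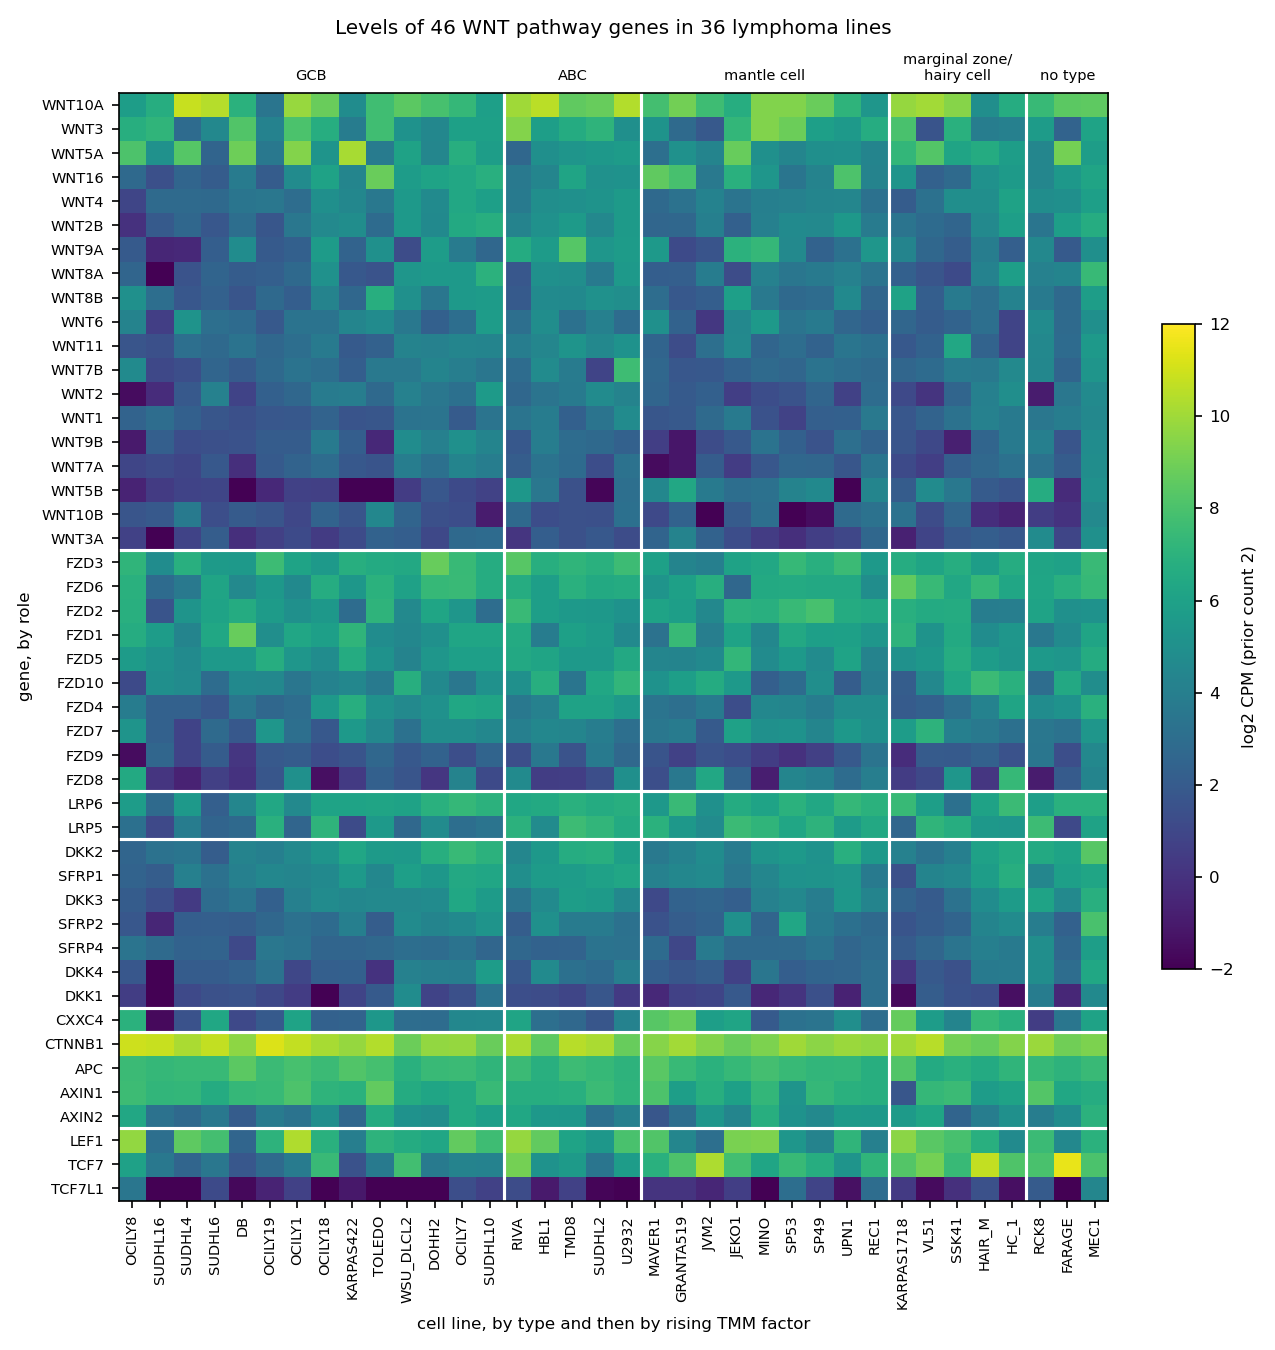
Level of each of the 46 WNT pathway genes (rows, grouped by role) in each of the 36 lines (columns, grouped by type and ordered by rising TMM factor), as log2 CPM with a prior count of 2 on a colour scale. CTNNB1 is at 369 CPM or more in every line, while WNT5A, WNT3, WNT16, CXXC4 and TCF7 are high in a few lines each.

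The promoters of TCF7 and WNT5B are shown first because these were the members that were lower in GCB lines than in the other types, the difference described further on. Each run is the plus strand of RefSeq GRCh38.p14, 300 bases from 250 before to 50 after an annotated start, and both genes have a pair of starts. Capitals mark a match to the core of the site that LEF1 and TCF proteins bind, searched as CTTTGAT and CTTTGTT and on the opposite strand as ATCAAAG and AACAAAG, which do not overlap one another as words.
TCF7 chr5:134115363-134115662: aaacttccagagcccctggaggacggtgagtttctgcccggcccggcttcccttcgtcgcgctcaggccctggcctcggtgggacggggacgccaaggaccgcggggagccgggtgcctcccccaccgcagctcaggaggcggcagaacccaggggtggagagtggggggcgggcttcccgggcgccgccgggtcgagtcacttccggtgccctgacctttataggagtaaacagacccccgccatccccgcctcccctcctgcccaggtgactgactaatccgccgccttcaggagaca
TCF7 chr5:134123368-134123667: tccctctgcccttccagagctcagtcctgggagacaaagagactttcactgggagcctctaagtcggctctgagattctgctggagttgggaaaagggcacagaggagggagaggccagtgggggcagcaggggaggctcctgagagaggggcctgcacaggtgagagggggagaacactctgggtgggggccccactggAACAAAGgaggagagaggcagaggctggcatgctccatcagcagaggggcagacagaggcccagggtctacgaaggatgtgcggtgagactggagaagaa
WNT5B chr12:1616806-1617105: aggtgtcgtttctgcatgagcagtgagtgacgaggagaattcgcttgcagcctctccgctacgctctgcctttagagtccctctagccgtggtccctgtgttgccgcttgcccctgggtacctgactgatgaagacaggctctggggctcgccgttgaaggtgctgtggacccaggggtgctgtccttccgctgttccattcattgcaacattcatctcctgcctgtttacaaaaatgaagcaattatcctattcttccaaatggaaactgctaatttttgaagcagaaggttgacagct
WNT5B chr12:1628981-1629280: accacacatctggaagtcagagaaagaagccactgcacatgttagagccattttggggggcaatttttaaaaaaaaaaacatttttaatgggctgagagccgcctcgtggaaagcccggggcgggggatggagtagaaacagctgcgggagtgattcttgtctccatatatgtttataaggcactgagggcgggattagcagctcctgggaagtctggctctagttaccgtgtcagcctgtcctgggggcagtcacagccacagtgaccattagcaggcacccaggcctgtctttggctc
The second TCF7 window held 1 match, AACAAAG, and the first TCF7 window and both WNT5B windows held none of these words. Of the 46 genes, 32 had a promoter in the table, in 37 windows, and 3 of these genes held a match, TCF7, DKK1 and WNT3. That is 8.11% of their windows, beside 7.61% of all 35116 promoters of the same length. A match is a description of letters in a window and shows no binding.

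Among the ligands, 17 of 19 passed the filter, 9 had a median of at least 10 CPM and 10 reached 100 CPM in at least 1 line. WNT10A is a ligand best known from skin, hair and teeth. It had a median of 352 CPM, with 10.6 in OCILY19 at the low end and 1850 in SUDHL4 at the high end, and lay over 100 CPM in 30 of 36 lines. By type its lowest, median and highest levels were 10.6, 187 and 1850 CPM in GCB lines, 379, 1030 and 1520 in ABC lines, 40.1, 227 and 662 in mantle cell lines, and 29.8, 690 and 1080 in marginal zone and hairy cell lines. The types overlapped, and the test across types did not call it (edgeR quasi-likelihood adjusted p = 0.587).

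WNT5A, the main ligand of the branches that do not need β-catenin, had a median of 41.8 CPM. It stood at 1140 CPM in KARPAS422, 679 in OCILY1, 539 in FARAGE, 476 in DB and 424 in JEKO1. These 5 lines met a rule used here for a line that stands apart, at least 50 CPM and at least 8 times the median of the 36 lines. The other GCB lines with over 100 CPM were SUDHL4 at 314, OCILY8 at 276 and OCILY7 at 110, while SUDHL6 was at 5.42. In the other types VL51 reached 301 and KARPAS1718 reached 154, and no ABC line was over 51.2 CPM. Marginal zone and hairy cell lines had the highest median, 98 CPM, beside 61 in GCB, 38.9 in ABC and 31.1 in mantle cell lines. All 5 marginal zone and hairy cell lines lay above the median of the 36 lines, as did 8 of the 14 GCB lines. WNT5A was 1.75 ± 0.64 (SE) log2 units higher in GCB lines than in the equally weighted mean of the other 3 types, and the edgeR quasi-likelihood adjusted p was 0.0938. It was past the threshold with the DESeq2 test (adjusted p = 0.0277) and, in edgeR, without JEKO1 (2.25 ± 0.57, adjusted p = 0.0156), and the difference was 0.76 with limma on the deposited log2 values. Of 45 other settings and left-out lines, 43 left WNT5A uncalled, with adjusted p up to 0.644.

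WNT3, a ligand of the β-catenin branch, had a median of 60.5 CPM and stood apart in RIVA at 672 and MINO at 642. SP53 followed at 458, and the lowest line was VL51 at 2.93. WNT16, a ligand known from bone and skin, had a median of 33.6 CPM and stood apart in TOLEDO at 439, MAVER1 at 387 and UPN1 at 275, with GRANTA519 next at 246. Of these 4 lines 3 are mantle cell lines and 1 is a GCB line. In mantle cell lines WNT16 was 1.68 ± 0.69 log2 units higher than in the other types, with an edgeR adjusted p of 0.284.

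Other ligands were found high in 1 line or very few. WNT9A, with a median of 14.5 CPM, was at 314 in TMD8, 162 in MINO and 125 in JEKO1. WNT7B, with a median of 7.77, was at 204 in U2932, and the next line, MEC1, was at 38.9. WNT11, with a median of 8.58, was at 85.6 in SSK41 and at 48.4 in MEC1. WNT8B, with a median of 11.8, was at 108 in TOLEDO. WNT5B, with a median of 3.11, was at 101 in RCK8 and 83.8 in GRANTA519. WNT8A was at 176 in MEC1 and 130 in SUDHL10 against a median of 12.3, and WNT2 was at 50.1 in SUDHL10 against 6.09. The remaining ligands, WNT1, WNT2B, WNT4, WNT6, WNT7A, WNT9B, WNT10B and WNT3A, had no line that stood apart. WNT1, the founding member of the family, reached 27 CPM in U2932, and WNT3A, the ligand most used to stimulate β-catenin in culture, reached 31.7 in MEC1 and 27.4 in RCK8.

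Across all roles, 17 of the 46 genes had at least 1 line that stood apart, in 37 pairs of gene and line spread over 23 lines. MEC1 and SUDHL10 together held 7 of these pairs, and 4 of the 17 genes stood apart in these lines alone. The rule was not applied to the other genes of the panel, so these counts do not set the family apart from it.

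Several ligand genes lie beside one another in the genome, and 4 such pairs lie within 100 kb. On GRCh38 (GENCODE 29) WNT10A lies at chr2:218880363-218899581 and WNT6 at chr2:218859821-218874233, 6130 bases apart. In SUDHL4, the highest line for WNT10A, WNT10A was at 1850 CPM and WNT6 at 36.5, against a WNT6 median of 8.9, while in SUDHL10, the highest line for WNT6 at 52.5, WNT10A was at 59.4. WNT3 (chr17:46762506-46833154) and WNT9B (chr17:46833201-46886730) are 47 bases apart on opposite strands, and in RIVA WNT3 was at 672 CPM and WNT9B at 3.36, while in OCILY7, the highest line for WNT9B at 31.9, WNT3 was at 61.4. WNT9A and WNT3A are 59153 bases apart on chromosome 1, and in TMD8 WNT9A was at 314 CPM and WNT3A at 2.54, while in MEC1, the highest line for WNT3A at 31.7, WNT9A was at 31.1. WNT1 and WNT10B, 6690 bases apart on chromosome 12, had highest levels of 27 CPM in U2932 and 24.1 in MEC1, and MEC1 was second for WNT1 at 22.8. The MEC1 levels in these pairs stand beside a lowest gene of 174 counts and a highest control target of 424 counts in that library. WNT6, WNT9B, WNT3A, WNT1 and WNT10B stayed under 100 CPM in every line. Whether both genes of a pair are high together at that level therefore cannot be read from these 4 pairs.

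All 10 Frizzled receptors passed the filter, 8 had a median of at least 10 CPM and 9 reached 100 CPM somewhere. FZD3, with a median of 101 CPM, ran from 16.1 in JVM2 to 424 in DOHH2 and was over 100 in 19 lines. FZD6, with a median of 88.5, ran from 6.14 in JEKO1 to 393 in KARPAS1718, and FZD5, with a median of 45.4, had the narrowest spread of the receptors (SD 0.77). FZD1 (median 55.8) was at 431 in DB, FZD2 (57) at 245 in SP49, FZD7 (18.4) at 132 in VL51, FZD10 (25.9) at 184 in HAIR_M, and FZD4 (19.4), which also binds norrin, at 119 in MEC1 and 109 in KARPAS422. FZD8, with a median of 3.12, was the one receptor with lines that stood apart: HC_1 at 167, OCILY8 at 89.3 and JVM2 at 85.7. FZD9 had a median of 3.18 and a highest level of 23.3 in MEC1, followed by 13.6 in SUDHL2. In MEC1 that was 512 counts, beside 424 for its highest control target. All the receptors but FZD8 and FZD9 were above the highest control target in all 36 lines.

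The co-receptors were both found in all 36 lines. LRP6 had a median of 81.6 CPM, from 4.53 in SUDHL6 to 187 in HC_1. LRP5 had a median of 45.7, from 1.94 in FARAGE to 193 in TMD8 and in RCK8, and lay under 10 CPM in 10 lines. Of these 10, 8 were GCB lines, and the 14 GCB lines ran from 1.96 in SUDHL16 to 137 in OCILY18. The ABC lines ran from 26.6 in HBL1 to 193 in TMD8 and the mantle cell lines from 27.1 in JVM2 to 188 in JEKO1. Marginal zone and hairy cell lines ran from 5.89 in KARPAS1718, also under 10 CPM, to 142 in VL51, with a median of 44.6. The difference of LRP5 in GCB lines was -1.70 ± 0.56 log2 units in the edgeR test, with an adjusted p of 0.0619. It was past the threshold in the DESeq2 test (adjusted p = 0.0135), in limma on the deposited log2 values (adjusted p = 0.00442), with RCK8 counted as an ABC line (adjusted p = 0.0464), and in edgeR without OCILY18 (adjusted p = 0.0134), without OCILY19 (adjusted p = 0.0207) or without KARPAS1718 (adjusted p = 0.0411). These were 6 of 45 other settings and left-out lines, and 39 left LRP5 uncalled, with adjusted p up to 0.118.

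Of the 7 secreted antagonists, 6 passed the filter, 3 had a median of at least 10 CPM and 4 reached 100 CPM. MEC1 was the highest line for DKK2 (329 CPM, median 41.2), DKK3 (112, median 21.1), DKK4 (81.7, median 5.21), SFRP2 (255, median 8.06) and SFRP4 (57.2, median 6.98). Without MEC1 the highest levels were 173 for DKK2 and 81.3 for DKK3, both in OCILY7, 52.4 for DKK4 in SUDHL10, 77.4 for SFRP2 in SP53 and 30.2 for SFRP4 in RCK8. SFRP1, an antagonist often silenced in carcinomas, had a median of 25.5 CPM and was highest in HC_1 at 111. DKK1, the best studied LRP antagonist, had a median of 1.9 and a highest level of 28.2 in WSU_DLCL2, and it was above the highest control target in 24 lines. CXXC4, which encodes an inhibitor of Dishevelled inside the cell, ran from 0.131 CPM in SUDHL16 to 423 in GRANTA519, with 407 in KARPAS1718, 329 in MAVER1 and 165 in HAIR_M against a median of 19.1.

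The core of the pathway was present in every line. CTNNB1 ran from 369 CPM in HBL1 to 2430 in OCILY19, with a median of 889, and APC from 95.3 in VL51 to 352 in DB, with a median of 170. AXIN1, the scaffold of the destruction complex, had a median of 120 CPM and lay over 10 CPM in 35 of 36 lines. The exception was KARPAS1718 at 3.15 CPM, a count of 23, while TOLEDO was highest at 402. AXIN2, which is itself switched on by β-catenin and widely used as a readout of the pathway, had a median of 29.9 CPM and ran from 3.22 in MAVER1 to 127 in MEC1, 109 in MINO and 97.3 in TOLEDO. The test across types did not call AXIN2 (edgeR F = 0.02, adjusted p = 0.998).

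LEF1 had a median of 132 CPM and was over 100 CPM in 22 lines. It was highest in OCILY1 at 1270, RIVA at 894, OCILY8 at 845 and KARPAS1718 at 756, and lowest in DB at 5.65, JVM2 at 8.56 and SUDHL16 at 8.64. Its lowest, median and highest levels were 5.65, 132 and 1270 CPM in GCB lines, 42.4, 249 and 894 in ABC lines, 8.56, 40.8 and 619 in mantle cell lines, and 26, 243 and 756 in marginal zone and hairy cell lines. High and low lines occurred in each type, and the test across types did not call LEF1 (edgeR F = 0.24, adjusted p = 0.921).

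**Figure D2:**
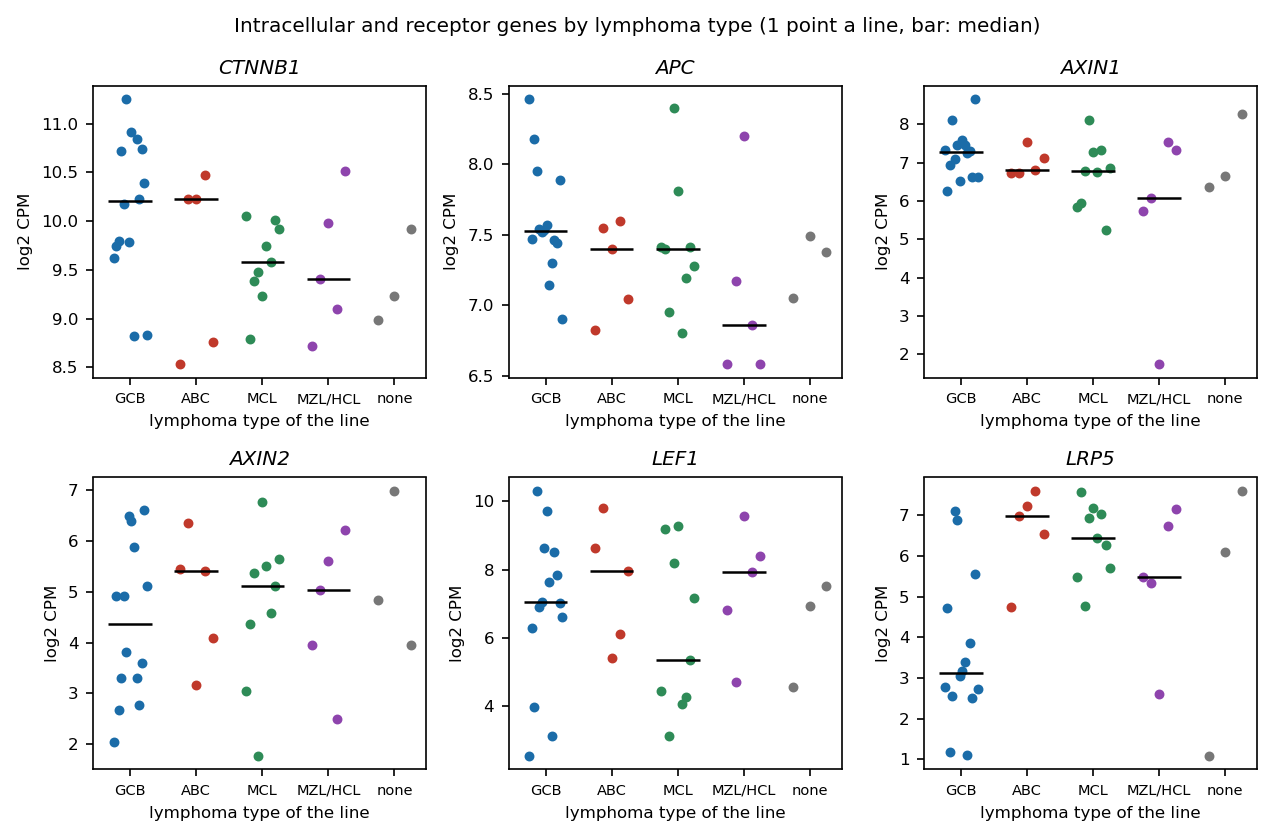
Levels of CTNNB1, APC, AXIN1, AXIN2, LEF1 and LRP5 in each line (1 point a line) by lymphoma type, as log2 CPM with the median of each type as a bar. CTNNB1 and APC vary little, AXIN1 has 1 low line, KARPAS1718, and LEF1 spans a wide range within every type.

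Across the 4 types, 4 of the 42 genes tested differed in the edgeR quasi-likelihood F test over 33 lines (adjusted p under 0.05 over all genes), WNT5B, WNT7B, TCF7 and WNT9A. That is 9.52%, beside 6.28% of all 2406 genes. At an unadjusted p under 0.05 the number was 9, DESeq2 called the same 4, and limma on the deposited log2 values called 3. In GCB lines against the other 3 types, 2 genes were lower, beside 2.62% of all genes, and 0 were higher, beside 3.08%. Of the 2, WNT5B passed the filter only through lines outside the GCB type. At an unadjusted p under 0.05 the numbers were 6 lower and 2 higher, and DESeq2 called 4 in all. In ABC lines 1 was higher, beside 0.582% of all genes, and 0 were lower, beside 0%. In mantle cell lines 0 were higher, beside 0.457%, and 0 lower, beside 0.125%, with 2 each way at an unadjusted p under 0.05 and 0 by DESeq2 and by limma. In marginal zone and hairy cell lines 0 were higher, beside 1.7%, and 0 lower, beside 0.0416%, with 3 higher and 2 lower at an unadjusted p under 0.05 and 0 by DESeq2 and by limma.

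WNT5B, a ligand close to WNT5A in sequence (chr12:1529891-1647243 on GRCh38), was at 3.26 CPM or less in every GCB line. Its lowest, median and highest levels there were 0, 1.29 and 3.26 CPM, with 0 counts in DB, KARPAS422 and TOLEDO, and 8 of the 14 lines lay above their highest control target. In mantle cell lines the levels were 83.8 CPM in GRANTA519, 25.1 in SP49, 22.1 in MAVER1, 20.5 in REC1, 19.3 in SP53, 12.8 in JVM2, 9.19 in MINO, 8.11 in JEKO1 and 0.0643 in UPN1. In ABC lines they were 41.8 in RIVA, 11.4 in HBL1, 8.38 in U2932, 2.54 in TMD8 and 0.097 in SUDHL2. In marginal zone and hairy cell lines they were 26.8 in VL51, 11.8 in SSK41, 3.97 in KARPAS1718, 3.86 in HAIR_M and 2.95 in HC_1. The highest GCB line was thus below 8 of 9 mantle cell lines, 3 of 5 ABC lines and 4 of 5 marginal zone and hairy cell lines. WNT5B passed the filter on low values only through lines outside the GCB type, and the other 6 GCB lines were not above their highest control target, so the size of the difference is set against background. The fitted difference of WNT5B in GCB lines was -3.57 ± 0.72 log2 units (edgeR adjusted p = 0.0028), and the F test across types gave 9.81 (adjusted p = 0.00459). It ran from -3.94 to -3.16 over 44 other settings and left-out lines, with a highest adjusted p of 0.00997. With a filter at 50 CPM WNT5B did not pass and was not tested. The same low GCB counts enter every setting, so this range gives no separate support for the call. Of the lines of no type, RCK8 was at 101 CPM, MEC1 at 32.3 and FARAGE at 0.646.

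TCF7, which encodes the nuclear factor TCF-1 (chr5:134114711-134151865), was lower in GCB lines and had its highest levels elsewhere. The 14 GCB lines had a lowest level of 2.74 CPM in KARPAS422, a median of 13.2 and a highest level of 214 in WSU_DLCL2, and 4 of them were under 10 CPM. In marginal zone and hairy cell lines TCF7 was at 1670 CPM in HAIR_M, 530 in VL51, 303 in KARPAS1718, 281 in HC_1 and 174 in SSK41, and 4 of these 5 lay above the highest GCB line. In mantle cell lines it was at 1250 in JVM2, 275 in GRANTA519, 219 in JEKO1, 170 in SP53, 141 in REC1, 117 in MAVER1, 103 in SP49, 75.2 in MINO and 37.9 in UPN1. In ABC lines it was at 543 in RIVA, 53.1 in U2932, 49.8 in TMD8, 35.5 in HBL1 and 10.8 in SUDHL2. The types overlapped, with 3 mantle cell lines and 1 ABC line above the highest GCB line. The difference of TCF7 in GCB lines was -2.76 ± 0.68 log2 units (edgeR adjusted p = 0.0127), and the F test gave 7.41 (adjusted p = 0.0181). In marginal zone and hairy cell lines it was 2.36 ± 0.74 log2 units higher, with an adjusted p of 0.12, which was 0.0279 without JVM2 and 0.0245 without RIVA. Of 45 other settings and left-out lines, 42 left this difference uncalled. With single lines left out it fell as low as 1.49, and the edgeR adjusted p reached 0.945.

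The TCF7 call depended on how 1 line was placed. FARAGE, a line of no type here and often grouped with germinal centre lines, had the highest level of all at 2980 CPM. Counted as a GCB line, it took the GCB difference to -0.23 ± 0.83 (edgeR adjusted p = 0.916) and the F test to an adjusted p of 0.711. Without HAIR_M the adjusted p of the F test was 0.0728 and that of the GCB difference 0.0286. T cell genes were measured beside TCF7, since T cells express it. The 8 T and NK cell markers, which include CD3D, CD2, CD5 and CD8A, summed to 15.4 to 760 CPM in GCB lines, 179 to 756 in ABC lines, 78 to 592 in mantle cell lines and 56.4 to 527 in marginal zone and hairy cell lines. In FARAGE, JVM2 and HAIR_M, the 3 lines with the most TCF7, they summed to 233, 247 and 125 CPM, against a median of 212 over the 36 lines. Of the 8 markers, 6 were above their median in FARAGE, 3 in JVM2 and 5 in HAIR_M. CD3D was at 57.1, 15 and 10.2 CPM in these lines (median 18.7), CD5 at 7.42, 1.94 and 5.92 (median 10.8), PRF1 at 37.2, 154 and 32.7 (median 29.6) and GZMB at 38, 33.2 and 17.2 (median 12.8). None of the 8 was at 0 in any line. The part of T cell RNA in these levels was not tested. In lysates of whole cultures, fewer cells with an RNA and less of it per cell cannot be told apart.

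WNT7B, a ligand of the β-catenin branch (chr22:45920362-45977129), was higher in ABC lines by 2.45 ± 0.52 log2 units (edgeR adjusted p = 0.0109; F test 8.86, adjusted p = 0.00793). The ABC levels were 204 CPM in U2932, 26.7 in HBL1, 14.2 in TMD8, 7.48 in RIVA and 1.65 in SUDHL2, while the other types had medians of 8.91, 6.15 and 12.5 and highest levels of 25.6, 9.89 and 24 CPM in GCB, mantle cell, and marginal zone and hairy cell lines. Of the ABC lines, 3 lay within the range of the other types or below it. Without U2932 the difference was 0.43 ± 0.53 with an adjusted p of 0.862, and the F test had an adjusted p of 0.566. The ABC call was also lost with limma on the deposited log2 values (0.89 ± 0.59, adjusted p = 0.552) and with the log2 TMM factor as a covariate (2.08 ± 0.57, adjusted p = 0.0896). WNT7B rose with that factor (1.95 ± 0.53), whose median was highest in ABC lines, at 1.244.

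WNT9A (chr1:227918656-227947898) was at 314 CPM in TMD8, 97 in RIVA, 52.1 in U2932, 51.7 in HBL1 and 40.6 in SUDHL2, so that all 5 ABC lines lay above the median of the 36 lines. GCB lines ran from 0.524 to 52.8 CPM with a median of 4.99, mantle cell lines from 2.06 to 162 with a median of 23.7, and marginal zone and hairy cell lines from 4.2 to 20.1 with a median of 6.3. The F test gave 5.64 (edgeR adjusted p = 0.0489), and it missed the threshold in 30 of 45 other settings and left-out lines, with adjusted p up to 0.2 without TMD8. The ABC difference was 2.54 ± 0.73 log2 units with an adjusted p of 0.116.

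**Figure D3:**
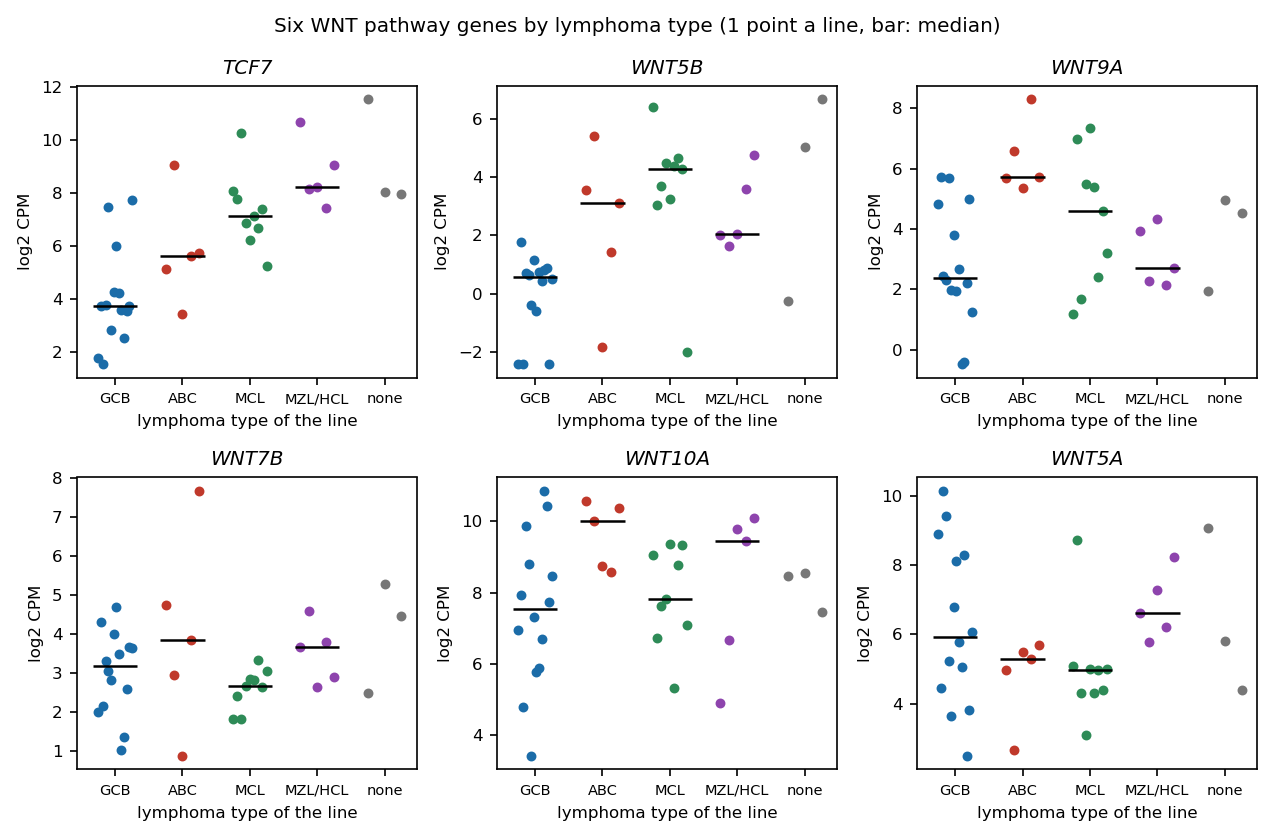
Levels of TCF7, WNT5B, WNT9A, WNT7B, WNT10A and WNT5A in each line (1 point a line) by lymphoma type, as log2 CPM with the median of each type as a bar. WNT5B is at or under 3.26 CPM in all 14 GCB lines, and the WNT7B level in U2932, 204 CPM, lies far above the other ABC lines.

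Genes were then set against LEF1 and AXIN2 as readouts of the pathway. On the log2 level of LEF1, 0 of 41 other genes of the family had a slope past the threshold in the edgeR test over 36 lines, beside 0.291% of all genes higher and 0.291% lower. At an unadjusted p under 0.05 there were 5, all higher, while DESeq2 called 2, WNT10A and WNT8B, and limma called 0. Of the 5, WNT10A had a slope of 0.36 ± 0.12 log2 units per log2 unit of LEF1 (adjusted p = 0.156), WNT7B of 0.36 ± 0.15 (adjusted p = 0.261) and WNT8B of 0.35 ± 0.13 (adjusted p = 0.214). AXIN2 had a slope of 0.23 ± 0.11 (adjusted p = 0.346), and CTNNB1 of 0.03 ± 0.06. TCF7 had a slope of -0.29 ± 0.18 on LEF1 (adjusted p = 0.555).

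On AXIN2, 9 of 41 genes rose, beside 10.6% of all genes, and 0 fell, beside 2.91%, with 13 and 2 at an unadjusted p under 0.05, 10 called by DESeq2 and 0 by limma. The 9 were the ligands WNT8A (0.84 ± 0.21, edgeR adjusted p = 0.0139), WNT9B, WNT8B, WNT2B and WNT7A, the antagonists SFRP2 (0.68 ± 0.17, adjusted p = 0.018), DKK4 and DKK2, and the receptor FZD6 (0.44 ± 0.12, adjusted p = 0.0223). None of the 9 was past the threshold without MEC1, the line with the most AXIN2 and the highest control targets. Without it WNT8A had a slope of 0.73 ± 0.24 (adjusted p = 0.127), SFRP2 of 0.32 ± 0.21 (adjusted p = 0.382) and FZD6 of 0.44 ± 0.13 (adjusted p = 0.108). With the log2 TMM factor in the fit, 0 of the 9 were past it either. FZD6 and WNT8B then kept slopes near their first values, 0.43 ± 0.12 and 0.52 ± 0.15, while DKK2 had -0.02 ± 0.08, DKK4 0.03 ± 0.15, SFRP2 0.08 ± 0.16 and WNT2B 0.09 ± 0.11.

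**Figure D4:**
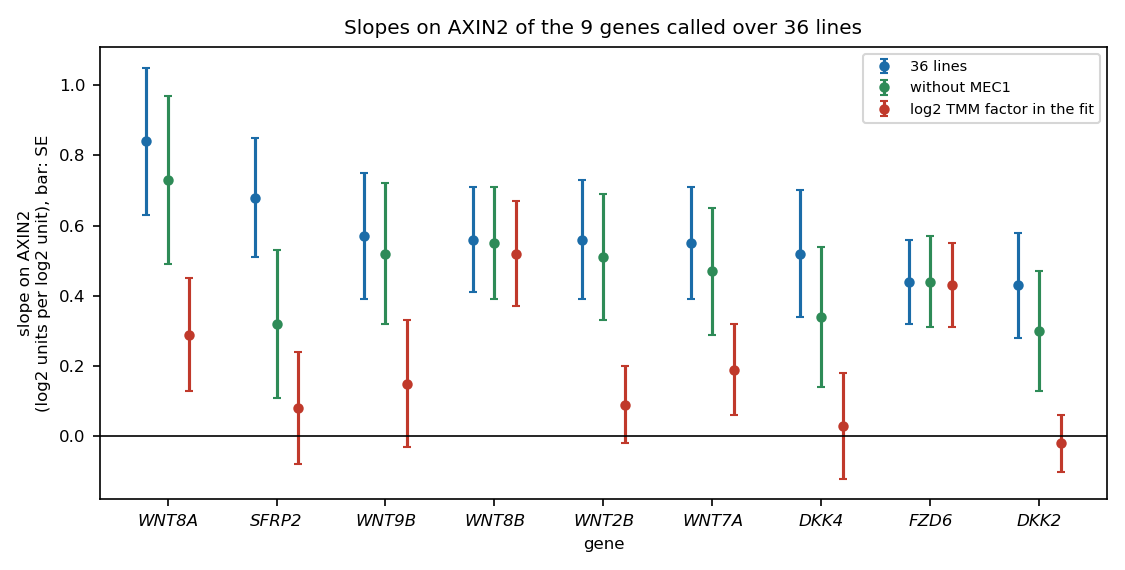
Slope on the log2 level of AXIN2 (log2 units per log2 unit, bar: SE) of the 9 genes called over 36 lines, in that fit, without MEC1, and with the log2 TMM factor as a covariate. With the factor in the fit the slopes of DKK2, DKK4, SFRP2 and WNT2B lie near 0, and those of FZD6 and WNT8B remain at 0.43 and 0.52.

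Library composition moved with many of these genes. The TMM factor was lowest in OCILY8 (0.602) and highest in MEC1 (1.871), with medians of 0.89 in GCB lines, 1.244 in ABC lines, 0.993 in mantle cell lines and 1.015 in marginal zone and hairy cell lines. On its log2 value, 18 of 42 genes rose in the edgeR test, beside 29.4% of all genes, and 2 fell, beside 31.5%. The median slope was 0.92 over the 42 genes and -0.35 over all genes tested. All 6 secreted antagonists tested rose, DKK3 by 3.69 ± 0.35, SFRP2 by 3.45 ± 0.44 and DKK2 by 3.42 ± 0.27 log2 units per log2 unit (adjusted p = 1.63e-10, 2.07e-08 and 1.23e-11). These 6 had medians of 5.21 to 41.2 CPM, while CTNNB1, WNT10A, APC and LEF1, with medians of 132 CPM or more, did not rise. FZD8 and WNT5B, with medians of 3.12 and 3.11, did not rise either, and LRP6, at 81.6, rose. Whether the slopes go with level or with role was not tested. Of the 17 ligands tested 9 rose, among them WNT8A, WNT2B, WNT4 and WNT7B. Not past the threshold were WNT5B (0.05 ± 1.02), WNT16 (0.07 ± 0.77), WNT3 (-0.66 ± 0.99) and WNT10A (-0.86 ± 0.68), among others. CXXC4 (-1.93 ± 0.74, adjusted p = 0.0233) and CTNNB1 (-0.93 ± 0.27, adjusted p = 0.00294) fell. CPM divides by the factor, and with library size alone the CTNNB1 slope was 0.07 ± 0.27. Without MEC1, 19 of the 20 were past the threshold, all but SFRP4. The part of library composition in the levels of single lines was not tested.

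**Figure D5:**
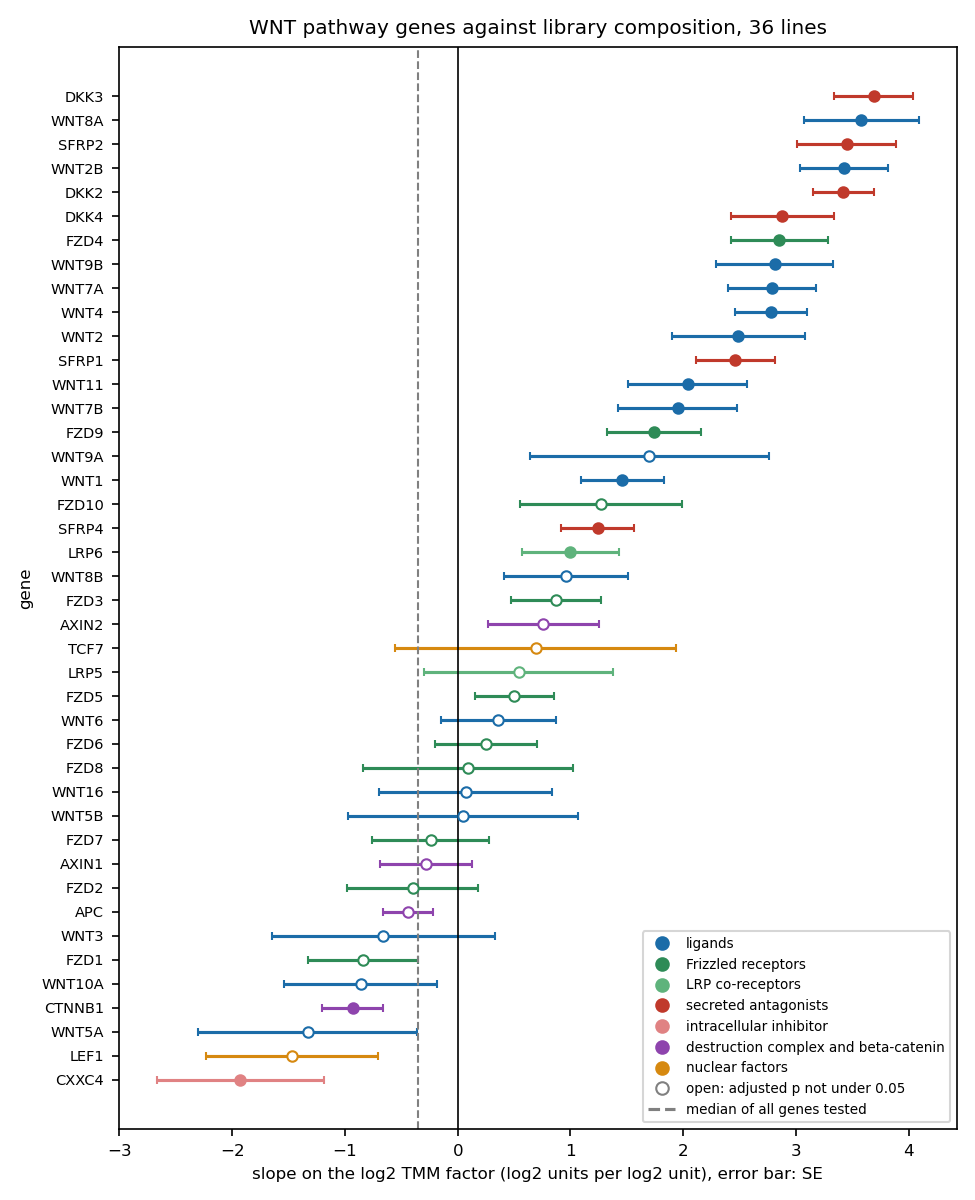
Slope of each of the 42 genes tested on the log2 TMM factor over 36 lines (log2 units per log2 unit, bar: SE), coloured by role, with open points where the adjusted p is not under 0.05. The 6 secreted antagonists lie between 1.24 and 3.69, and the dashed line marks the median of all genes tested, -0.35.

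Other genes of the pathway were read from 4 lists, with any of the 46 genes left out. Their counts are small and stand beside the shares of all genes already given, 3.08% higher and 2.62% lower in GCB lines, so a single call is not a result about its list. Of 9 tested regulators of WNT secretion and of the cell surface, 1 fell in GCB lines, RNF43, a ubiquitin ligase that removes Frizzled receptors from the membrane (-1.59 ± 0.40 log2 units, edgeR adjusted p = 0.0148), and 0 changed in the other types. The list's median GCB difference was 0.29, beside 0.17 over all genes. Of 20 tested cytoplasmic and nuclear transducers, 1 rose in GCB lines, NLK, a kinase that acts on TCF proteins (1.03 ± 0.30, adjusted p = 0.0391). In the same list 2 rose with LEF1, SMAD4 (0.26 ± 0.06, adjusted p = 0.0185) and TBL1XR1, a co-regulator that binds β-catenin (0.29 ± 0.06, adjusted p = 0.00745), beside 0.291% of all genes. Of 20 genes of the planar polarity and calcium branches, 1 rose in GCB lines, MAPK10, a JNK kinase (3.35 ± 0.57, adjusted p = 0.000658). Of 19 target genes known from other tissues, CCND1, the gene of the mantle cell translocation, rose in mantle cell lines by 7.07 ± 0.99 (adjusted p = 6.87e-05), and BMP4 and JAG1 rose in marginal zone and hairy cell lines by 4.43 ± 0.75 and 2.98 ± 0.54. In that list CCND1 (-3.88 ± 0.88) and RNF43 fell in GCB lines. The types that GCB lines were set against include the mantle cell lines, where CCND1 is high. In ABC lines CCND1 was also lower, by -2.63 ± 1.26 (edgeR adjusted p = 0.473). Of the 19, 0 had a slope on LEF1 past the threshold. RNF43 is in both lists.

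On AXIN2, 3 of the 9 surface regulators rose (KREMEN1, RSPO2 and SOST), 1 of the 20 transducers rose (NKD1) and 1 fell (NLK), 2 of the 20 planar polarity and calcium genes rose (NFATC4 and PLCB4) and 1 fell (MAPK10), and 2 of the 19 targets rose (NKD1 and TWIST1). These counts stand beside 10.6% of all genes higher and 2.91% lower with all 36 lines. On the log2 TMM factor 6 of the 9 surface regulators rose and 0 fell, 2 of the 20 transducers rose and 15 fell, 3 of the 20 planar polarity and calcium genes rose and 8 fell, and 7 of the 19 targets rose and 5 fell, beside 29.4% of all genes higher and 31.5% lower.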

How the data were processed

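RNA of 36 lymphoma lines, 1 library a line, was measured by targeted RNA-Seq. The authors deposited a table of counts per target, whole numbers with no scaling, and a table of log2 values, which equal the log2 of each count over 1 factor per library, plus 1, within 0.0053. The submitters' processing notes name hg38. Which aligner and counter made the counts, and whether by strand, is not given in the sources used here. Of 2559 targets, 10 controls that name no gene were left out, and 0 sample columns were unused.

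Counts were scaled by TMM factors in edgeR 4.0.16 and given as CPM, with a prior count of 2 on the log2 scale. Genes that reached 10 CPM in 4 lines or more were tested (2406) by the edgeR quasi-likelihood test with Benjamini-Hochberg adjustment over all of them, at a threshold of 0.05. A type was compared with the equally weighted mean of the other 3 types, over 33 lines, and slopes used 36 lines. An SE is the estimate over the square root of its F statistic. The scripts were tested on simulated data. Alternatives were other scalings, filters and prior counts, DESeq2 1.42.0, limma 3.58.1 on the deposited log2 values, other placements of lines, and lines left out in turn. Leaving out GCB and mantle cell lines, single lines in the slopes on LEF1 and AXIN2, and the 6 libraries with a control target over 30 counts were alternatives chosen after seeing the data.

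The genes, types and lists were chosen with earlier results of these data known. Every gene was accounted for. Named with values were those called between types, the 12 with the largest SD, the core genes, and the lines that stood apart. Coordinates are from GENCODE 29 on GRCh38 and promoters from RefSeq GRCh38.p14. TCF7L2 was not analysed here.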

Additional observations from a re-analysis of the deposited data

Results flagged for a closer look

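Within each type of 5 to 9 lines, the highest and the lowest line were set against Dixon's 95% critical value in 126 groups of values, and 8 stood out. Chance flags about 1 in 20 groups, so a number near 8 could come by chance. Of the 8, 2 were the highest line of their type, WNT5A in JEKO1 at 424 CPM among mantle cell lines and WNT11 in SSK41 at 85.6 CPM among marginal zone and hairy cell lines. The other 6 were the lowest: FZD4 at 2.3 and FZD6 at 6.14 CPM in JEKO1, SFRP4 at 1.8 CPM in GRANTA519 and WNT5B at 0.0643 CPM in UPN1 among mantle cell lines, and WNT5A at 6.07 and WNT8B at 3.74 CPM in RIVA among ABC lines. JEKO1 gave 3 of the 8. Some of the low flags lie near background. FZD4 in JEKO1 was 21 counts, beside 16 for the highest control target. WNT5B in UPN1 lay under 0.193 CPM, a level that remains possible there where no count is seen.

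The lines placed in no type entered no comparison between types, and 7 of their levels stood apart. Of these, 6 were the highest of all 36 lines, and the seventh, WNT5A in FARAGE at 539 CPM, lay below KARPAS422 and OCILY1. TCF7 was at 2980 CPM in FARAGE, and WNT5B was at 101 CPM in RCK8. MEC1 had DKK4 at 81.7, SFRP2 at 255, SFRP4 at 57.2 and WNT8A at 176 CPM, beside control targets that were the highest of the 36 libraries.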

How the results depend on the processing

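The count of genes that differed among types was 4, and 2 to 5 with single lines left out, with 2 each without HAIR_M and without U2932. With a filter at 50 CPM it was 1, and WNT5B and WNT7B did not pass that filter and were not tested. For GCB lines the count was 2, 4 with the DESeq2 test, 1 with FARAGE as a GCB line and 2 to 3 with lines left out. It was 1 at 50 CPM, where WNT5B was not tested. For ABC lines the count was 1, 0 with limma, 0 with the log2 TMM factor as a covariate and 0 to 2 with lines left out. It was also 0 at 50 CPM, where WNT7B was not tested. For marginal zone and hairy cell lines it was 0, 1 (TCF7) without DOHH2 and JVM2 and 0 to 1 with lines left out, and for mantle cell lines 0 throughout. Slopes on LEF1 numbered 0 and 2 with the DESeq2 test. Slopes on AXIN2 numbered 9. They were 0 with DESeq2 size factors, with limma, without MEC1, without the 2 farthest lines (MAVER1 and DB), without the libraries with high control targets and with the TMM factor as a covariate. They were 16 with upper-quartile factors, 21 with library size alone and 3 at 50 CPM, where fewer genes were tested. With lines left out they were 4 to 10, with 4 without OCILY7 and 5 each without DB and without SUDHL4. Shares of all genes called are given for the main fits only. Counts under other settings, here and above, thus do not set the family apart from the panel. The DKK2 slope went to -0.02 ± 0.08 with the TMM factor as a covariate, a change of sign that is within its error of 0. Slopes on the TMM factor numbered 20, 9 at 50 CPM, where fewer genes were tested, and 30 with library size alone. CTNNB1 went to 0.07 ± 0.27 with library size alone, which by construction adds 1 to each slope. With a limit of 10 CPM in place of the control targets, 29 genes and not 45 were found in at least 18 lines. Except where the setting itself removes genes or samples or rescales the values, the cause was not tested. Each line was measured once, and levels near 0.474 CPM cannot be told from 0 in OCILY8, the library with the lowest TMM factor. No paired analysis was possible because each line has 1 library and replicate numbers only name lines within a type.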
